A study of Mus musculus with 12 samples.

Results

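The conjugation enzymes described here are the glutathione transferases, glucuronosyltransferases and sulfotransferases measured in distal ileal tissue. They were taken by symbol: the alpha, mu, pi, theta, omega, kappa and zeta classes of glutathione transferase, the 1a, 2a and 2b groups of glucuronosyltransferase, and every numbered sulfotransferase. This gave 59 of the 45808 genes in the deposited table, namely 21 glutathione transferases, 19 glucuronosyltransferases and 19 sulfotransferases. RNA was sequenced from the ileum of inbred BALB/c mice, in 6 libraries from mice given phosphate-buffered saline (PBS) and 6 from mice treated with Porphyromonas gingivalis, an oral bacterium associated with periodontitis. By its title, the series asks how this bacterium is linked to inflammation of the intestine. The labels used here give no genotype, age or sex, and how, how much and for how long the bacterium was given is not given in the sources used here. Nothing states that each library came from a different mouse, so the p-values measure only the spread between these samples, which may be technical.

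Conjugation is the step of detoxification in which a charged group is joined to a drug, dietary compound, steroid or bile pigment, so that it can be carried out of the cell. Glutathione transferases join glutathione to reactive carbon atoms, glucuronosyltransferases in the endoplasmic reticulum join glucuronic acid, and cytosolic sulfotransferases join sulfate. In the intestine these enzymes are made mainly by the absorptive cells that line the villi, and several are known to be more abundant towards the upper small intestine than in the ileum.

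Values are normalized counts, that is, reads per gene divided by the authors with a size factor for each library. A difference is the P. gingivalis mean less the PBS mean, both of log2(normalized count + 1), and is given with its standard error (SE) from limma fitted across all genes. Libraries are named by group and by the number in their titles. The reads recovered per library ran from 6553306 to 10378841, and the members took between 0.205% and 0.365% of them. Of the 59 members, 36 had a mean of at least 10 over the 12 libraries and were tested (19, 11 and 6 in the 3 families).

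Several libraries stood apart before any group comparison. Fabp6, the bile acid binding protein that marks the ileum, stood at 4.32 normalized counts in PBS replicate 6, while P. gingivalis replicates 1 and 5 had 2.52 and 16.0, against 11246 to 69383 in the other 9 libraries. The same 3 libraries, called Fabp6-poor below, held 16938 to 26745 normalized counts of Fabp1, a fatty acid binding protein typical of the upper small intestine, against 18.3 to 1821 elsewhere. In these 3 libraries the defining ileal marker was therefore nearly absent although all 12 are labelled as distal ileum. P. gingivalis replicate 6 had the lowest Fabp1 (18.3), the lowest summed level of 12 epithelial markers (101787, against 119894 to 263449 in the others) and the highest of 10 smooth muscle markers (36333, against 11539 to 28309). In such bulk tissue, fewer cells of a type and less RNA per cell cannot be told apart. Fat cell markers also followed the groups: 9 of 9 had a lower mean after P. gingivalis with an unadjusted p under 0.05, and their sum lay between 2358 and 11448 in PBS libraries and between 456 and 3739 in P. gingivalis libraries. The mean after P. gingivalis was also lower for 5 of 5 tested mesothelium markers (4 with an unadjusted p under 0.05) and 10 of 10 smooth muscle markers (4). It was lower for 6 of 7 fibroblast markers (1) and higher for 5 of 5 tested T cell markers (2). Epithelial markers had a lower mean in 10 of 12 (0) and ileum markers in 5 of 5 (0). B cell markers had a higher mean in 7 of 7 (0) and upper small intestine markers in 5 of 7 (0). The part of these cell types in the results below was not tested. None of the 9 fat cell markers passed limma or edgeR over all genes, and 2 passed DESeq2.

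No conjugation enzyme gene differed between the groups past the threshold. With limma and Benjamini-Hochberg adjustment, 0 of 36 members were higher and 0 were lower after P. gingivalis, where the background over 15025 genes was 0% higher and 0% lower. The smallest adjusted p of a member was 0.397 (limma), for Gstz1. At an unadjusted p under 0.05, 2 of 36 members (5.56%) differed against 3.73% of all genes; both were lower, against 2.16% of all genes. edgeR's quasi-likelihood test on the recovered reads called 0 members and 0% of 14907 genes, with 1 of 36 members and 3.64% of all genes under an unadjusted p of 0.05. DESeq2 called 0 members and 0.181% of the 18239 genes to which it gave an adjusted p. Under that unadjusted p were 1 of 36 members and 2.58% of 27211 genes, a wider set that includes genes with few reads. For no member were the groups without overlap, against 0.166% of all genes.

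The directions were evenly split. The difference was positive for 18 members and negative for 18, with a median of -0.02 against -0.00 over all genes tested. The members ranged from -0.45 (Gstz1) to 0.80 (Gsta2). By family, 8 of 19 glutathione transferases, 9 of 11 glucuronosyltransferases and 1 of 6 sulfotransferases had a positive difference, with medians of -0.07, 0.12 and -0.12. These signs depended on a few libraries. Without the 3 Fabp6-poor libraries 31 of 36 members were negative, with a median of -0.16 where all genes had -0.01. Without P. gingivalis replicate 6 only 12 of 36 were negative and the median was 0.13. The SE of a member's difference had a median of 0.22, and it was widest for Ugt2a3 (0.90) and Gsta2 (0.72).

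**Figure D1:**
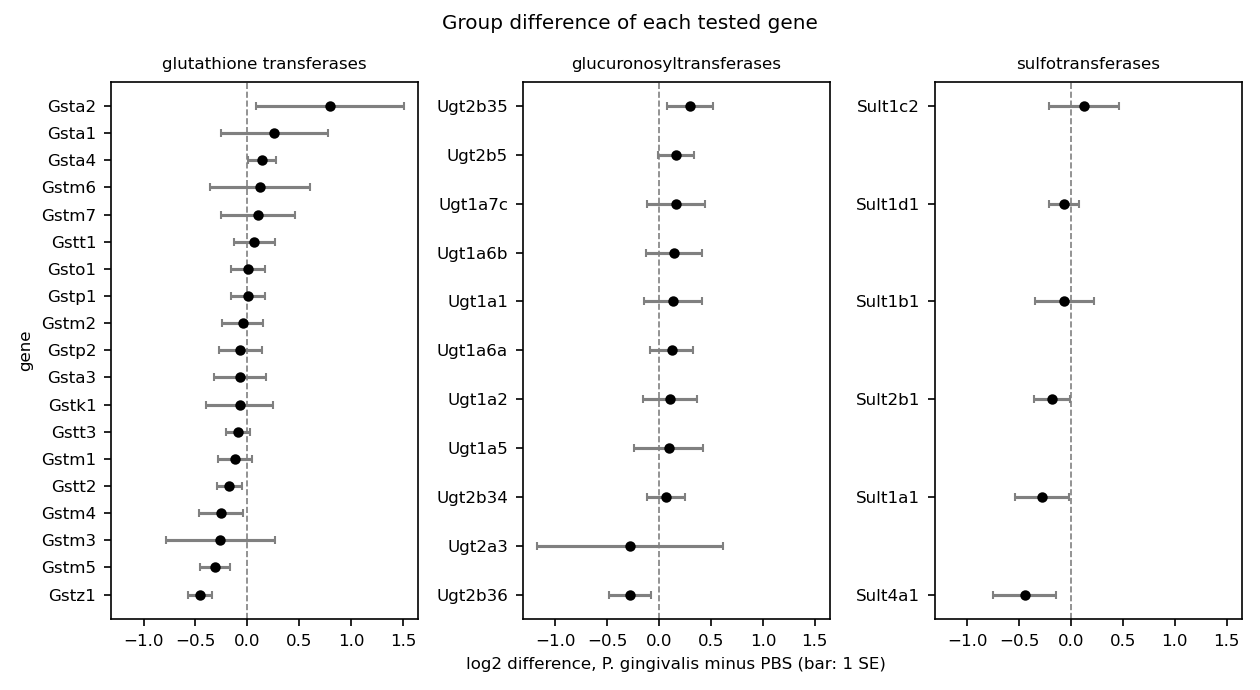
Log2 difference between P. gingivalis and PBS (x axis, log2 of normalized count + 1) for each tested glutathione transferase, glucuronosyltransferase and sulfotransferase (y axis); points are limma estimates from 6 libraries a group and bars are 1 SE. The points lie between -0.45 and 0.80, with Gstz1 lowest and Gsta2 highest, and the bar of Ugt2a3 is the widest.

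Gstz1 was the member with the smallest p. It encodes the zeta class enzyme that also serves as maleylacetoacetate isomerase in the breakdown of tyrosine, and lies on chromosome 12 from 87147165 to 87164723 on the plus strand (GRCm38, GENCODE; protein coding). The PBS libraries, replicates 1 to 6, held 358, 411, 402, 383, 272 and 340.1 normalized counts, and the P. gingivalis libraries 328, 268, 262, 232, 258 and 228. The groups overlapped only through PBS replicate 5 and P. gingivalis replicate 1, and all 6 P. gingivalis values lay below the PBS median. The means were 361 ± 51.2 (SD, n = 6) and 263 ± 35.9 (SD, n = 6), a difference of -0.45 (SE 0.12; unadjusted p = 0.00153, limma adjusted p = 0.397). Under the 24 alternative settings the difference stayed between -0.55 and -0.41, the unadjusted p stayed under 0.05 in all 24, and the adjusted p ran from 0.116 to 0.999. Leaving out the 3 Fabp6-poor libraries removes P. gingivalis replicate 1, the only treated library above PBS replicate 5. For that reason the groups then no longer overlapped for Gstz1, which adds no support for a difference. It was 1 of 36 members, while 0.859% of all genes then had no overlap. The summed fat cell markers were also lower after P. gingivalis. They were at 3739 in P. gingivalis replicate 6, where Gstz1 was lowest (228). In P. gingivalis replicate 1, where Gstz1 was highest of the treated libraries (328), they were at 684. Among the PBS libraries both were lowest in replicate 5 (2358 and 272) and next lowest in replicate 6 (4737 and 340.1). The part of fat tissue in the Gstz1 difference was not tested. Of the annotated exonic bases of Gstz1, 12.2% lie opposite exons of Pomt2 or Gm6566, and the strand setting of the counting is not given in the sources used here.

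Gstm5, a mu class glutathione transferase on chromosome 3 (107895821 to 107898686, plus strand), was the other member with an unadjusted p under 0.05. It held 109, 147, 139, 106, 104 and 152 normalized counts in the PBS libraries and 94.5, 100.3, 87.7, 78.9, 125 and 121 after P. gingivalis. The lower 4 P. gingivalis libraries lay below every PBS library, and replicates 5 and 6 lay within the PBS range. The means were 126 ± 22.5 (SD, n = 6) and 101 ± 18.2 (SD, n = 6), a difference of -0.32 (SE 0.14; unadjusted p = 0.0457, limma adjusted p = 0.992). Its unadjusted p stayed under 0.05 in 13 of the 24 alternatives, and its adjusted p ran from 0.505 to 0.9999. Of its exonic bases 13.9% lie opposite exons of 4933431E20Rik.

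**Figure D2:**
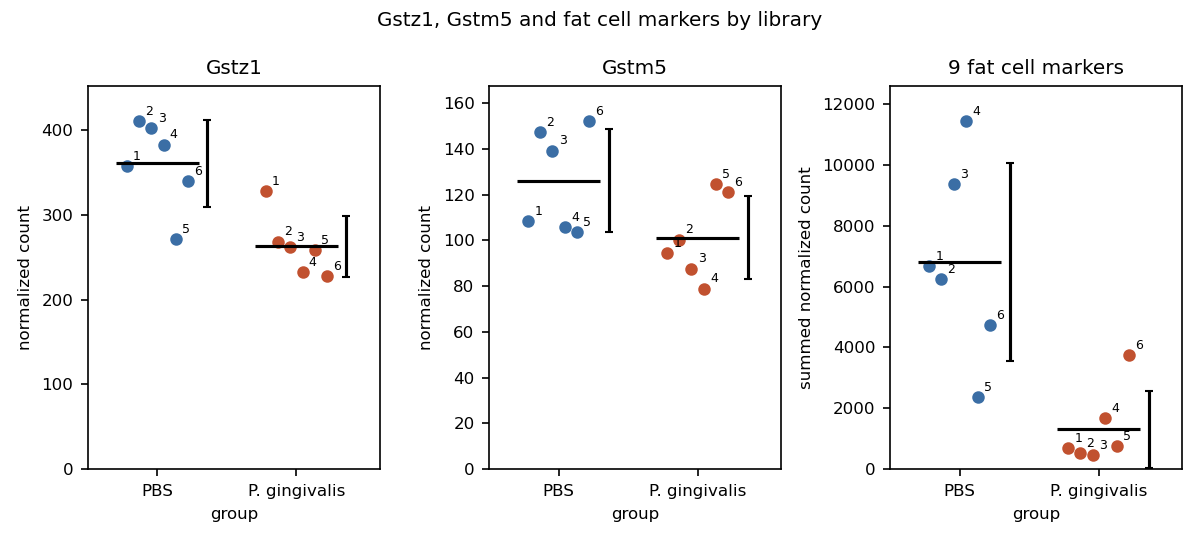
Normalized count of Gstz1 and Gstm5 and the summed normalized count of 9 fat cell markers (y axes) in the PBS and P. gingivalis groups (x axis); each point is 1 library with its replicate number, lines are means and bars 1 SD (n = 6). Gstz1 is below the PBS median in all 6 P. gingivalis libraries, and P. gingivalis replicate 1 (328) lies above PBS replicate 5 (272).

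Many members ranged widely across the 12 libraries, and the Fabp6-poor libraries were often at the top of that range. For 14 of 36 members (38.9%) these 3 libraries had the 3 highest values, against 6.46% of all genes tested. The 14 were Gsta1, Gsta2, Gstk1, Gstm2, Gstm3, Gstm6, Gstm7, Gstp1, Gstt1, Ugt1a1, Ugt1a7c, Ugt2a3, Ugt2b35 and Sult1b1, or 9 of 19 glutathione transferases, 4 of 11 glucuronosyltransferases and 1 of 6 sulfotransferases. They had the 3 lowest values for 1 member, Sult1c2, against 4.93% of all genes. Among the 29 members with a mean of at least 50 the 3 libraries held the 3 highest values for 13 or the 3 lowest for none. P. gingivalis replicate 6 was the lowest of the 12 libraries for 24 of 36 members (66.7%), against 19.7% of all genes, and the highest for 3 of 36 (Sult1a1, Sult1c2 and Sult4a1), against 18.3% of all genes. Since 1 of the 3 Fabp6-poor libraries is a PBS library and 2 are P. gingivalis libraries, they raise the mean of both groups.

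**Figure D3:**
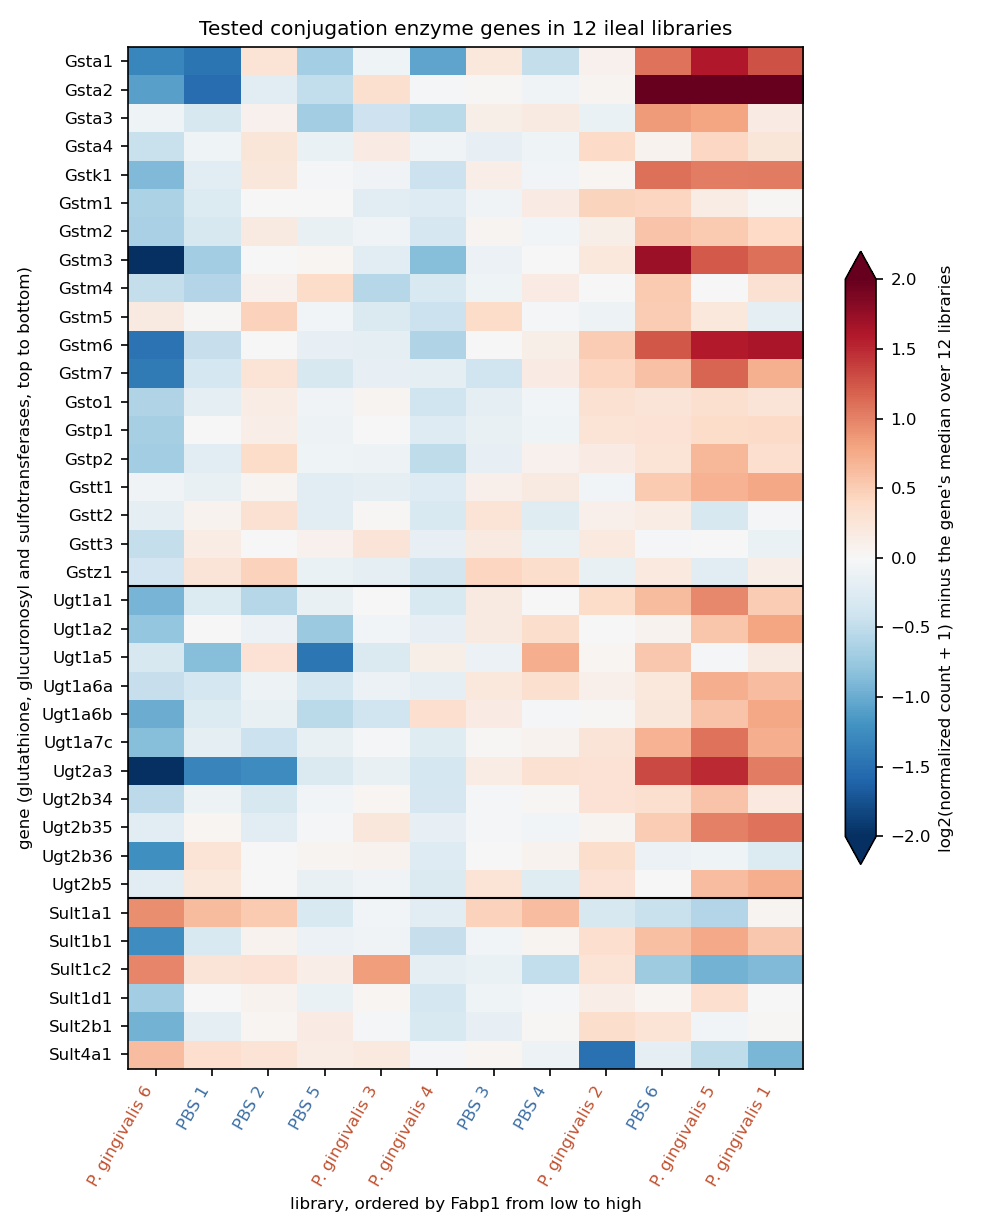
Each of the 36 tested genes (rows, by family) in the 12 libraries (columns, ordered by Fabp1 from low to high, PBS names in blue and P. gingivalis names in orange); colour is log2(normalized count + 1) minus the gene's median, with values past 2 in either direction shown at the end of the scale. The last 3 columns, the Fabp6-poor libraries, are highest for 14 of 36 genes, and the first, P. gingivalis replicate 6, is lowest for 24 of 36.

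Promoter sequence is shown for 4 of the 14 members that were highest in the Fabp6-poor libraries. Ugt2a3 and Ugt1a1 were the only 2 of the 14 with an HNF1 half-site match, and Gsta1 and Gsta2 lie near each other on chromosome 9. RefSeq windows from 250 bases before to 50 after a gene's start (GRCm38.p6) matched 52 of the 59 members, with 63 windows. The 250 bases before the start are printed 5′ to 3′ on the strand of each gene. In Ugt2a3 and Ugt1a1 capitals mark matches to short motifs searched on both strands: GTTAAT for HNF1, AGATAA for GATA factors and TTTATNG for CDX factors. In Gsta1 and Gsta2, both alpha class genes, capitals mark the longest run of identical bases between their windows, 29 bases. The RefSeq start used for Gsta2 lies inside the gene's GENCODE span (78331018 to 78355788, minus strand), and so does its window.
Ugt2a3 (chr5:87337196-87337445, minus strand): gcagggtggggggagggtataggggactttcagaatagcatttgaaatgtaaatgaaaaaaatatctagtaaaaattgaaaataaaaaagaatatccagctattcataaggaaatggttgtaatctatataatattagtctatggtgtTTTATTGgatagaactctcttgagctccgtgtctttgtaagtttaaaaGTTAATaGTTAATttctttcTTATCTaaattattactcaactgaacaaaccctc
Ugt1a1 (chr1:88211709-88211958, plus strand): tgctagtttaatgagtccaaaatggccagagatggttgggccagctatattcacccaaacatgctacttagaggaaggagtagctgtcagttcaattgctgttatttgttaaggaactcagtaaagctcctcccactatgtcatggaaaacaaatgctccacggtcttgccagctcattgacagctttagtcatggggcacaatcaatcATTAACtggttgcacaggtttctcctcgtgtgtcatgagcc
Gsta1 (chr9:78230419-78230668, plus strand): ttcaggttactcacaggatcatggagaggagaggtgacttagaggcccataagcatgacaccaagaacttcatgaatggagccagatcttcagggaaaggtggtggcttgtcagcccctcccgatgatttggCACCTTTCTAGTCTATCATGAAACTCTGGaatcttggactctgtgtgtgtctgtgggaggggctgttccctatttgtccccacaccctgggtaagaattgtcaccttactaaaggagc
Gsta2 (chr9:78347146-78347395, minus strand): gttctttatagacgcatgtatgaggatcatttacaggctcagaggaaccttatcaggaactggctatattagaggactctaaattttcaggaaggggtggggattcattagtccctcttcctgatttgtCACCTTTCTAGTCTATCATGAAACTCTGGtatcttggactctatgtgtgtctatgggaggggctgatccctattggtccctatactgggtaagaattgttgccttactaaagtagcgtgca

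The Ugt2a3 window holds 2 GTTAAT matches, beginning 54 and 47 bases before the start and parted by a single base, an AGATAA match on the other strand at 34 and a TTTATNG match at 102. Ugt1a1 holds 1 GTTAAT match on the other strand, 41 bases before the start. GTTAAT was found in 12 of the 63 member windows (19.0%), against 7.10% of all 32851 windows. Among these were windows of Sult2a3, Sult2a4, Sult2a5 and Sult2a6, which had no reads, and of Ugt1a9 and Ugt1a10, which were too low to be tested. AGATAA was found in 11 member windows (17.5%, against 11.2%) and TTTATNG in 6 (9.52%, against 10.9%). The antioxidant response element, written TGACNNNGC, was found in 3 (4.76%, against 12.4%), those of Gsta3, Gstm5 and Gstm7. An HNF4 element, CAAAGTCCA, was found in 1 window, of Sult1b1, against 0.475% of all windows. Among the 14 members highest in the Fabp6-poor libraries, all of which had a window, 2 held GTTAAT, 4 AGATAA, 3 TTTATNG, 1 the antioxidant response element and 1 the HNF4 element. Each match is a description of these letters and no evidence of binding. With 1 window shifted by 5 bases and no gaps allowed, Gsta1 and Gsta2 had the same base at 51.2% of 295 positions. That shift does not line up their shared run of 29 bases, so the share understates how alike the windows are.

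Among the glutathione transferases, Gsto1 had the highest mean count. It encodes the omega class enzyme, which reduces dehydroascorbate and mixed disulfides. It held 1479, 1867, 1464, 1615, 1602 and 2023 normalized counts in PBS and 2004, 2084, 1758, 1277, 2109 and 1106 after P. gingivalis, means of 1675 ± 224 and 1723 ± 434 (SD, n = 6 each). The P. gingivalis libraries spanned both ends of the range, and the difference was 0.01 (SE 0.17). Gstp1, the pi class enzyme, averaged 943 ± 113 and 973 ± 255, a difference of 0.01 (SE 0.17). Both signs turned negative without the Fabp6-poor libraries, at -0.08 and -0.12. Gstm1 averaged 926 ± 159 and 864 ± 221 (difference -0.12, SE 0.16) and Gstm2 618 ± 141 and 609.8 ± 179.8 (-0.04, SE 0.20). Gsta4, which conjugates the lipid peroxidation product 4-hydroxynonenal, averaged 420.0 ± 47.1 and 471 ± 97.1, a difference of 0.14 (SE 0.14). Without P. gingivalis replicate 6, where it was lowest (313), the Gsta4 difference was 0.25 (SE 0.10; limma unadjusted p = 0.0300, adjusted p = 0.535).

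Gsta2 and Gstm3 had the largest spread among the glutathione transferases. Gsta2, an alpha class gene on chromosome 9 (78331018 to 78355788, minus strand), held 3.57, 10.4, 12.3, 11.5, 8.36 and 62.6 normalized counts in PBS and 83.2, 12.7, 15.3, 11.96, 92.6 and 5.22 after P. gingivalis. The 3 Fabp6-poor libraries lay between 62.6 and 92.6, and the other 9 at 15.3 or below. The highest library was 25.9-fold above the lowest, which rested on 5 reads, while the group difference was 0.80 (SE 0.72). Without the Fabp6-poor libraries that difference was 0.27 (SE 0.40).

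Gstm3, a mu class gene on chromosome 3, held 64.3, 105, 95.6, 104, 107 and 342 in PBS and 224, 121, 89.9, 57.4, 246 and 23.5 after P. gingivalis. PBS replicate 6 was the highest library and P. gingivalis replicate 6 the lowest, 14.6-fold apart. Its difference was -0.26 (SE 0.52), -0.58 (SE 0.38) without the Fabp6-poor libraries and 0.14 (SE 0.42) without P. gingivalis replicate 6. Gsta1 and Gstm6, chosen after their values were seen, ranged 8.64-fold and 8.78-fold. Reads of near-identical genes may be split here: 90.5% of the 50-base words of Gsta1 transcripts and 49.8% of those of Gsta2 occur in transcripts of other genes, as do 28.8% for Gstm3, 33.7% for Gstp1 and 18.9% for Gstm1. For Gsto1, Gsta4 and Gstm5 this share was 0%.

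Among the glucuronosyltransferases, Ugt2b34 was the most abundant member of any family. Scaled by exonic length it averaged 1539 normalized counts per kilobase, ahead of Sult1b1 (868), Gsto1 (839.8), Sult1d1 (724), Gstp1 (619) and Gstm1 (608). Ugt2b34, a 2b group gene on chromosome 5 (86889767 to 86906937, minus strand), held 6019, 5165, 6395, 6542, 6216 and 8067 normalized counts in PBS. It held 7433, 7894, 6654, 5102, 9629.9 and 4492 after P. gingivalis, so that the treated group contained both the highest and the lowest library. The means were 6401 ± 949 and 6868 ± 1887 (SD, n = 6 each), a difference of 0.07 (SE 0.18). Ugt2b35 averaged 368 ± 69.4 and 478 ± 201, a difference of 0.30 (SE 0.22), which came to 0.04 (SE 0.11) without the Fabp6-poor libraries.

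Ugt2a3, a 2a group gene on chromosome 5 (87324972 to 87337195, minus strand), spanned the widest range of all members. It held 261, 275, 726, 811, 537 and 1642 normalized counts in PBS and 1335, 805, 594, 512, 1849 and 18.3 after P. gingivalis. P. gingivalis replicate 5 was 101-fold above P. gingivalis replicate 6, which held 21 reads, and the 3 Fabp6-poor libraries were the 3 highest. The group difference was -0.28 (SE 0.90). It was 0.64 (SE 0.46) without P. gingivalis replicate 6 and -0.84 (SE 0.93) without the Fabp6-poor libraries. Of its transcript words 4.55% were shared with other genes.

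The 1a group genes lie together on chromosome 1 and share their last exons, with a first exon of their own each. Ugt1a1, the bilirubin-conjugating enzyme (88211959 to 88218997, plus strand), held 622, 507, 850.2, 746, 678 and 1165 in PBS and 1064, 973, 757, 607, 1465 and 395 after P. gingivalis. Ugt1a7c, which acts on phenols, held 615, 519, 708, 731, 632 and 1129 in PBS and 1162, 841, 690.4, 589, 1487 and 388 after P. gingivalis. For both, the 3 Fabp6-poor libraries were highest and P. gingivalis replicate 6 lowest. Their differences were 0.13 (SE 0.28) and 0.16 (SE 0.28), and both turned to small negative values without the Fabp6-poor libraries (-0.05 and -0.08). The ratio of Ugt1a1 to Ugt1a7c stayed between 0.915 and 1.20 in all 12 libraries, with a median of 1.03. Of the exonic bases 59.0% of Ugt1a1 and 54.6% of Ugt1a7c belong to other 1a genes as well. The counts of single 1a genes therefore depend on how shared reads were assigned, which is not given in the sources used here. On the opposite strand, exons of Gm20528 cover 41.5% of the exonic bases of Ugt1a1 and 9.34% of those of Ugt1a7c. The strand setting of the counting is not given either. Ugt1a5 averaged 18.1 ± 9.42 and 17.1 ± 2.56, with a difference of 0.09 (SE 0.33) although its mean was higher in PBS.

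**Figure D4:**
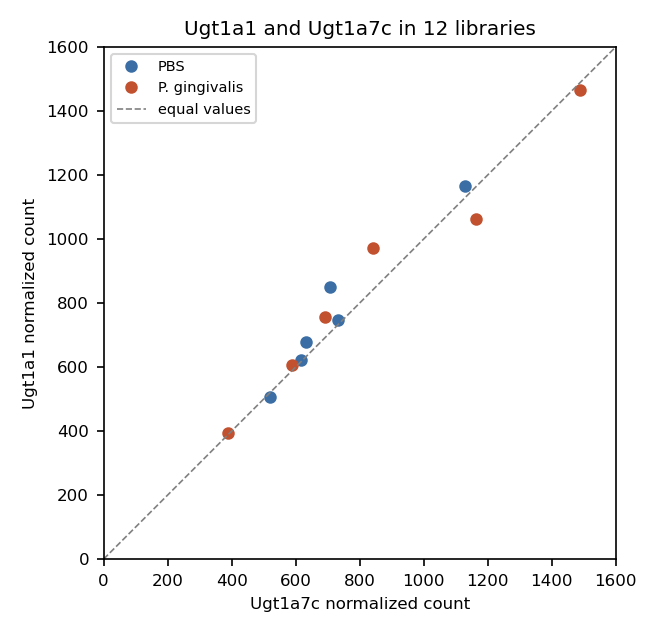
Normalized count of Ugt1a1 (y axis) against that of Ugt1a7c (x axis), 1 point per library, PBS in blue and P. gingivalis in orange, with the line of equal values. The 12 points follow the line, with a ratio between 0.915 and 1.20.

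Among the sulfotransferases, Sult1b1, which acts on thyroid hormones and phenols, had the highest counts. It held 1838, 2369, 2169.9, 2358, 2078 and 3432 normalized counts in PBS and 3295, 2842, 2145, 1648, 3809 and 959 after P. gingivalis, means of 2374 ± 554 and 2449 ± 1065 (SD, n = 6 each). The 3 Fabp6-poor libraries were highest, and the difference was -0.07 (SE 0.29). Sult1d1, which acts on catecholamines in the mouse, was the most even of the abundant members among the PBS libraries, at 1797 ± 95.6, against 1762 ± 420.3 after P. gingivalis (difference -0.06, SE 0.15). Sult2b1, the cholesterol sulfotransferase, averaged 1056 ± 132 and 957 ± 259 (difference -0.18, SE 0.18).

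The remaining 3 tested sulfotransferases had low counts, with means over 12 libraries of 79.1 for Sult1a1, 47.4 for Sult1c2 and 24.0 for Sult4a1. Sult1c2 held 53.6, 55.0, 40.7, 31.7, 49.3 and 27.0 in PBS and 23.9, 54.2, 81.1, 39.5, 22.9 and 89.6 after P. gingivalis. The Fabp6-poor libraries were its 3 lowest and P. gingivalis replicate 6 its highest. Its difference was 0.13 (SE 0.34), and 0.47 (SE 0.25) without the Fabp6-poor libraries. Sult1a1, the phenol sulfotransferase, averaged 86.2 ± 25.9 and 71.9 ± 30.9 (difference -0.28, SE 0.26). Sult4a1, an enzyme best known from brain, held 31.4, 30.1, 25.6, 23.1, 27.6 and 21.6 in PBS and 12.6, 8.14, 28.5, 23.9, 17.1 and 38.3 after P. gingivalis. Its difference was -0.45 (SE 0.30). Both were highest in P. gingivalis replicate 6, the library with the most smooth muscle marker RNA, and the part of that tissue was not tested. Without that library their differences were -0.47 (SE 0.22) and -0.64 (SE 0.27), with limma unadjusted p of 0.0474 and 0.0348 and adjusted p of 0.594 and 0.553. In that fit 5 of 36 members had an unadjusted p under 0.05, against 8.33% of all genes. Gstz1, Gstm5, Sult1a1 and Sult4a1 were lower and Gsta4 was higher.

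The 23 members outside the test had means below 10. Among them 10 had no read in any library: Ugt2a1, Ugt2a2, Sult2a1 to Sult2a7 and Sult3a1. In a library, 3 reads, the upper limit that a count of 0 allows, correspond to 2.14 to 3.78 normalized counts. The Sult2a genes encode hydroxysteroid and bile acid sulfotransferases of the liver. The other 13 had between 1 and 105 reads over all 12 libraries. Ugt1a9, named after its values were seen, had the most. PBS replicate 6 held 18.4, P. gingivalis replicates 1 and 5 held 34.0 and 36.6, and there were 0 to 5.77 in the other 9 libraries, so the 3 Fabp6-poor libraries were again the highest.

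Within the 9 libraries that contained Fabp6, some members varied with Fabp1. The 12 libraries fall into separate clusters of Fabp1, so no correlation over all 12 is given. The same relation was computed for all 15024 other genes tested, with exact permutation tests adjusted over all of them. On the log2(normalized count + 1) scale Pearson's r was positive for 32 of 36 members (88.9%) and for 51.2% of all genes. It was positive with an unadjusted exact p under 0.05 for 18 of 36, against 12.8% of all genes. Counted in either direction, 19 of 36 had such a p by Pearson's r, against 20.7% of all genes. By Spearman's rho, also in either direction, it was 11 of 36, against 11.5%. After adjustment 1 of 36 members passed by Pearson's r, Ugt2a3, against 0.393% of all genes, and by rho 0 of 36 passed and 0% of all genes. These shares describe genes that are not independent of one another. Many of the members' r values were much smaller once the libraries farthest from the median Fabp1 were left out, as given below.

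Ugt2a3 had r = 0.98 (exact permutation p = 2.76e-05, adjusted 0.0335) and rho = 0.93 (exact permutation p = 0.00075, adjusted 0.139). Leaving out the 2 libraries farthest from the median Fabp1, P. gingivalis replicate 6 and PBS replicate 1, gave r = 0.87. For Ugt1a7c r was 0.90 (exact permutation p = 0.00291, adjusted 0.0929), rho 0.87 (exact permutation p = 0.00451, adjusted 0.262), and r was 0.85 without those 2 libraries. For Ugt1a1 r was 0.85 (exact permutation p = 0.00311, adjusted 0.0947), rho 0.80 (exact permutation p = 0.0138, adjusted 0.309) and r then 0.78.

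None of the other relations passed the adjustment. Without those 2 libraries r went from 0.74 (exact permutation p = 0.018, adjusted 0.168) to 0.68 for Ugt2b34. For Gstm1 it went from 0.83 (exact permutation p = 0.00379, adjusted 0.102) to 0.65. For Ugt1a6a, chosen after its values were seen, it went from 0.76 (exact permutation p = 0.0061, adjusted 0.116) to 0.80. Many relations rested more on those 2 libraries. For Gstm3 r fell from 0.90 (exact permutation p = 0.0117, adjusted 0.142; rho 0.52, exact permutation p = 0.162, adjusted 0.528) to 0.26. For Sult1b1 it fell from 0.90 (exact permutation p = 0.00791, adjusted 0.125; rho 0.63, exact permutation p = 0.076, adjusted 0.425) to 0.45. It also fell for the other named members with a positive r and an unadjusted exact permutation p under 0.05. Without the 2 libraries r went from 0.80 to 0.13 for Gstm2, 0.68 to 0.11 for Gsto1 and 0.71 to 0.30 for Gsta2. For Sult1d1 it went from 0.76 to 0.16 and for Sult2b1 from 0.86 to 0.23. Sult4a1 ran the other way by rank, with rho = -0.97 (exact permutation p = 0.000165, adjusted 0.113) and r = -0.61 (exact permutation p = 0.111, adjusted 0.335), which was -0.69 without the 2 libraries. Gstz1 had r = 0.37 (exact permutation p = 0.367, adjusted 0.602), rho = 0.17 (exact permutation p = 0.678, adjusted 0.868) and r = 0.09 without the 2. With log2(Fabp1 + 1) as a covariate in limma, 0 of 36 members passed the group comparison. In that fit 4 of 36 had an unadjusted p under 0.05, namely Gsta2, Gstm3, Gstm5 and Gstz1, against 6.33% of all genes.

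**Figure D5:**
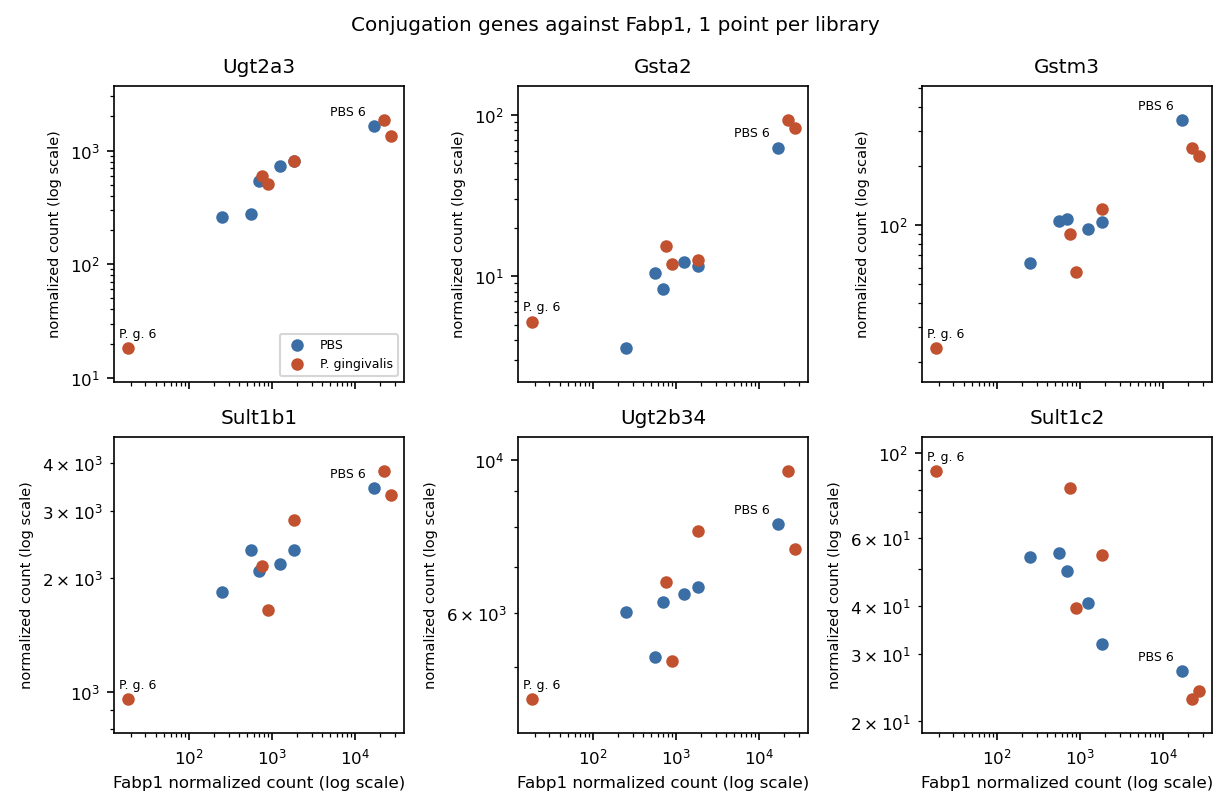
Normalized count of 6 members (y axes, log scale) against Fabp1 (x axes, log scale), 1 point per library, PBS in blue and P. gingivalis in orange. Ugt2a3 rises from 18.3 in P. gingivalis replicate 6 to 1849 in P. gingivalis replicate 5, while Sult1c2 runs the other way and is highest in P. gingivalis replicate 6 (89.6).

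The genes that supply, follow or regulate conjugation were taken from 8 lists with 102 genes, of which 101 were matched in the table and 93 were tested. None passed over all genes with limma, edgeR or DESeq2. At an unadjusted p under 0.05 limma gave 1 higher and 3 lower of 93, a share near the 3.73% of all genes. With edgeR and DESeq2 it was 3 each, where 3.64% of 14907 genes and 2.58% of 27211 genes had such a p. The difference was negative for 61 of the 93 and positive for 32, with a median of -0.06 against -0.00 over all genes. The gene with a higher mean was Slc35d1, which carries UDP-glucuronic acid into the endoplasmic reticulum. It held 165, 239.7, 203, 239, 255 and 328 in PBS and 444, 437, 263, 387, 426 and 209.6 after P. gingivalis, so that 4 treated libraries lay above every PBS library. Its difference was 0.58 (SE 0.20; limma adjusted p = 0.992).

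The 3 genes with a lower mean were Aox1, Nnmt and Foxa3. Aox1, an aldehyde oxidase listed among NRF2 targets, averaged 105 ± 35.4 and 55.4 ± 31.1 (difference -0.99, SE 0.31; limma adjusted p = 0.855). Nnmt, which methylates nicotinamide, averaged 22.8 ± 9.13 and 9.003 ± 6.43 (difference -1.37, SE 0.44; limma adjusted p = 0.918). Both were highest among the treated libraries in P. gingivalis replicate 6, which also had the most fat cell marker RNA of that group (3739). Of all 12 libraries it had the most smooth muscle (36333) and fibroblast (15825) marker RNA. The part of these tissues was not tested. Foxa3, a transcription factor of gut epithelium, averaged 191 ± 15.6 and 159 ± 32.0 (difference -0.29, SE 0.13; limma adjusted p = 0.992).

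By role, glutathione supply had 5 of 13 positive differences, with Gclc, the catalytic subunit of the rate-limiting enzyme, at 0.13 (SE 0.12) and the glyoxalase Hagh at -0.15 (SE 0.16). NRF2 targets had 3 of 12, with the sulfiredoxin Srxn1 at -0.21 (SE 0.18). The microsomal and other transferases had 2 of 12, with Mgst1 at -0.28 (SE 0.14) and Mgst2 at -0.25 (SE 0.16). UDP-glucuronic acid supply and removal had 4 of 5, with the lysosomal glucuronidase Gusb at 0.13 (SE 0.12). Sulfate donor supply and removal had 4 of 11, with the donor transporter Slc35b2 at -0.15 (SE 0.09) and the protein tyrosine sulfotransferase Tpst2 at -0.22 (SE 0.12). Other conjugation enzymes had 1 of 7, with the histamine methyltransferase Hnmt at -0.64 (SE 0.39).

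Conjugate efflux had 3 of 10 positive differences. For 3 of the 10, Abcg2, Slc51a and Slc51b, the Fabp6-poor libraries held the 3 lowest values. Slc51a and Slc51b, the subunits of the basolateral bile acid carrier, had differences of -0.68 (SE 0.52) and -0.63 (SE 0.47), which came to -0.33 (SE 0.26) and -0.35 (SE 0.32) without those libraries. Regulators had 10 of 23 positive differences, with Cdx2, the intestinal homeobox factor, at -0.25 (SE 0.13). Of the 93 pathway genes, 12 had their 3 highest values in the Fabp6-poor libraries and 5 their 3 lowest, against the 6.46% and 4.93% of all genes given above.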

How the data were processed

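The deposited values are a normalized signal: reads per gene scaled by the authors with a size factor for each library, per the file headers and the values, since dividing by 1 step per library gave whole reads (100% within 0.001 reads). FastQC, HISAT2, Cufflinks, DESeq2 and the build GRCm38 (mm10) are named, without versions, per the submitters' processing notes. Polyadenylated RNA was purified on columns from RNAlater-treated tissue and TruSeq libraries were made, per the labels' protocols. How reads were counted, with which strand setting and annotation, is not given in the sources used here.

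The 15025 genes whose mean reached 10 normalized counts were compared by limma 3.58.1 (R 4.3.3, trend option) on the log2(normalized count + 1) scale, two-sided, with Benjamini-Hochberg adjustment at 0.05. The pseudocount of 1 understates the change of low genes. edgeR 4.0.16 and DESeq2 1.42.0 were run on the recovered reads. The scripts were tested on simulated data. Depth was 6553306 to 10378841 reads, intervals from a floor of 3 reads cover counting error only, and no 2 libraries were copies (smallest chi-square per degree of freedom 7.09). The table had 27 names turned into dates, and 18583 genes without reads. Gene positions and lengths are from GENCODE, shared words from its transcripts.

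The members, gene lists and tests were chosen with earlier results of these data known. Named were, per family, the 5 members with the highest mean and the 2 with the largest spread, every member with an unadjusted p under 0.05, and the 2 genes of each pathway list with the smallest p. The correlations with Fabp1, the count of lowest values in P. gingivalis replicate 6 and the shared words were added after seeing the data. Alternatives were other pseudocounts and filters, other scalings, the other tools, the number in the title as a block, sample weights, Fabp1 as a covariate, and leaving out libraries.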

Additional observations from a re-analysis of the deposited data

Results flagged for a closer look

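In 12 of 96 groups of 6 libraries, 1 library lay far from the other 5 for a named gene or a marker sum. The cutoff used is one that chance reaches in about 1 group in 20 for independent values. Some named genes were chosen for their spread and all groups come from the same 12 libraries, so these shares make no test. PBS replicate 6, a Fabp6-poor library, was the high one in 7. There Gsta2 was at 62.6 normalized counts (3.57 to 12.3 in the other PBS libraries), Gstm3 at 342 (64.3 to 107), Ugt1a7c at 1129 (519 to 731), Ugt2b35 at 504 (306 to 364) and Sult1b1 at 3432 (1838 to 2369). The summed upper small intestine markers stood at 116714 there (8646 to 30460.0) and the summed T cell markers at 325 (119 to 192).

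P. gingivalis replicate 6 was the high one in 3. Sult1a1 was at 132 (45.7 to 71.8 in the other P. gingivalis libraries), Aox1 at 114 (27.1 to 58.6) and the summed fat cell markers at 3739 (456 to 1687). PBS replicate 2 was high for Slc35b2 at 293 (233 to 254), and PBS replicate 5 for Foxa3 at 221 (178 to 189).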

How the results depend on the processing

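Under the 24 alternatives no member passed the threshold in either direction, and the lowest adjusted p of a member was 0.116. Over all genes, DESeq2 called 3 higher and 30 lower, sample weights 1 and 19, Fabp1 as a covariate 0 and 26, a pseudocount of 5 called 0 and 1, and leaving out the Fabp6-poor libraries 1 and 0; leaving out 1 library called 0 to 1 higher and 0 to 52 lower, the most without P. gingivalis replicate 6. Members without overlap rose from 0 to 1 without the Fabp6-poor libraries. No scaling moved the median of all genes by more than 0.1. Of 37 named genes 25 kept their sign throughout, Gstz1 and Gstm5 among them. The other 12 turned in at least 1 alternative, among them Ugt2a3 and Gstm3, and the cause was not tested. With trimmed-mean scaling (TMM) Gsto1 was at -0.019 and Gstp1 at -0.021, and with the covariate at -0.017 and -0.022. Without the Fabp6-poor libraries Gsto1, Gstp1, Ugt2b34, Ugt1a1 and Ugt1a7c were at -0.084, -0.118, -0.038, -0.049 and -0.076. With sample weights Gstm2 was at 0.046, Ugt2a3 at 0.115, Sult1b1 at 0.054 and Sult1d1 at 0.003. edgeR and DESeq2 gave Ugt2a3 0.262 and 0.266, Ugt1a5 -0.059 and -0.066, and Sult1b1 0.041 and 0.045. Leaving out 1 library in turn gave ranges of -0.059 to 0.127 (Gsto1), -0.068 to 0.143 (Gstp1), -0.15 to 0.085 (Gstm2), -0.526 to 0.141 (Gstm3), -0.04 to 0.18 (Ugt2b34), -0.039 to 0.339 (Ugt1a1), -0.025 to 0.362 (Ugt1a7c), -0.673 to 0.644 (Ugt2a3), -0.166 to 0.268 (Ugt1a5), -0.221 to 0.177 (Sult1b1), -0.15 to 0.056 (Sult1d1) and -0.068 to 0.317 (Sult1c2). With the title number as a replicate block, 0 members and 0 genes passed. The deviations of same-numbered libraries from their group means correlated at -0.54 to 0.08. These values were not compared with those of differently numbered libraries, so they cannot decide whether the numbers pair the libraries. Depth limits the low members most, Gsta2 having 5 to 81 reads per library.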
